A study of Mus musculus with 39 samples.

Results

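The 8 genes Retnlg, Pglyrp1, Slpi, Wfdc17, Wfdc21, Trem1, Trem3 and Cd177 were grouped as genes of proteins that mature mouse neutrophils secrete or carry on their surface. Wfdc17 ran against that name in newborn marrow and BALB/c spleen, where it was lower in granulocytic than in monocytic sorts. Slpi was lower in granulocytic sorts of the APCmin/+ intestine, and Cd177 was not called higher in granulocytic sorts at any site. The genes were taken by symbol from a table of 53465 genes, and all 8 were among the 18466 genes expressed highly enough to be tested. Polyadenylated RNA was sequenced in 39 mouse libraries, 3 for each of 13 groups. The sorted cells were labelled as myeloid-derived suppressor cells, immature or activated myeloid cells known to restrain T cells, in a granulocytic (G), a monocytic (M) or a combined (GM) sort. From APCmin/+ mutant mice, which carry a truncating Apc allele and develop intestinal tumours, came G, M and GM sorts and all cells of the intestine, and G, M and GM sorts of the spleen. From BALB/c mice labelled as immune-deficient, with the defect not given, came G, M and GM sorts of the spleen. From C57BL/6 mice labelled newborn, at postnatal day 7, came G and M sorts and all cells of bone marrow. The sources used here give neither the ages of the other mice, nor the sort markers, nor the stretch of intestine, nor whether the 3 libraries of a group came from separate animals. Tissue, strain, genotype and age therefore change together in several comparisons and cannot be told apart there. Spread between libraries, which may be technical, is all that the p-values rest on.

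Neutrophils make their granule proteins in waves as they mature in the marrow, then gain the receptors and cytokine genes of the circulating cell. Retnlg is a resistin-like protein of myeloid cells. Pglyrp1 is a granule protein that binds bacterial peptidoglycan and is known as a ligand of the TREM-1 receptor. Slpi, Wfdc17 and Wfdc21 carry WAP domains, small disulphide-rich folds, and Slpi inhibits neutrophil elastase and cathepsin G. Trem1 and Trem3 are activating immunoglobulin-like receptors that signal through the adaptor DAP12, encoded by Tyrobp. Cd177 is a lipid-anchored surface protein of neutrophils that in humans binds PECAM1 and holds proteinase 3 on the cell.

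In 2 places these genes are neighbours on the mouse genome (GENCODE M21, GRCm38). Trem1 (chr17:48232768-48246924, plus strand) and Trem3 (chr17:48247777-48258841, plus strand) lie 852 bases apart. Wfdc17 (chr11:83703991-83706268, plus strand) and Wfdc21 (chr11:83746940-83752642, plus strand) lie 40671 bases apart, with the family member Wfdc18 between them. Retnlg (chr16:48872621-48874496, plus strand) and Slpi (chr2:164354070-164389095, minus strand) share their chromosomes with no other of the 8 genes. Of the resistin family, Retnlb (chr16:48816856-48818892, plus strand) and Retnla (chr16:48842551-48844461, plus strand) lie near Retnlg. Pglyrp1 (chr7:18871331-18890459, plus strand) and Cd177 (chr7:24743983-24760311, minus strand) share a chromosome. In their transcripts, 6 of the 8 genes had no stretch of 75 bases, the read length, in common with another gene. Such stretches made up 1.31% of Pglyrp1 and 3.58% of Cd177, for Cd177 in common with BC049730 and Gm4763.

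RefSeq (build GRCm38.p6) gave promoters for 6 of the 8 genes, all but Wfdc21 and Trem3. The 250 bases before the start site are shown for the 3 genes that were called higher in G than in M sorts of newborn marrow, written 5′ to 3′ on the strand of the gene. Capitals mark matches, on either strand, to 3 of the 4 short motifs that were searched.
Retnlg: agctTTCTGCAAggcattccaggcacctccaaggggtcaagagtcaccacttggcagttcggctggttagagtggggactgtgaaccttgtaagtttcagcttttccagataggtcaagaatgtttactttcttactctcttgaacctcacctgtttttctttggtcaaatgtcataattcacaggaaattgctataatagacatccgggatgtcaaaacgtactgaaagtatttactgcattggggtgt
Slpi: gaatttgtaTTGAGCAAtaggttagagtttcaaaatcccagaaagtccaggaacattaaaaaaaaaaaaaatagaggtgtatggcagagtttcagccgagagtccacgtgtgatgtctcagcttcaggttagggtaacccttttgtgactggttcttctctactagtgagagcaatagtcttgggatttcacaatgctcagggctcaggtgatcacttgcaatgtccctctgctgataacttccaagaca
Trem1: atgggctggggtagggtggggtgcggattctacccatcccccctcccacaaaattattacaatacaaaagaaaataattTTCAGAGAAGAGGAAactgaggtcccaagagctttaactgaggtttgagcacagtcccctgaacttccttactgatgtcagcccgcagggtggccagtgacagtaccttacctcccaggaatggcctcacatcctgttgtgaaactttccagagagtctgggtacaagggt
The windows are chr16:48872358-48872607 (plus strand), chr2:164356508-164356757 (minus strand) and chr17:48232489-48232738 (plus strand). The Slpi window precedes a RefSeq start that lies inside the GENCODE span given above for Slpi, so it does not precede the outermost GENCODE start. The Retnlg and Slpi windows each held 1 C/EBP-type match (TTGCNNAA), which 9.57% of 32841 mouse promoters of this length hold. The Trem1 window held a STAT-type match (TTCNNNGAA, in 7.02% of promoters) directly followed by a PU.1-type match (GAGGAA, in 23.3%). Among the windows not shown, those of Wfdc17 and Cd177 held 1 PU.1-type match each and that of Pglyrp1 held 2. An AP-1-type motif (TGANTCA, in 6.75% of promoters) was not found in the 6 windows. These matches describe letters and do not show that a factor binds there.

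Levels are given in TPM, a share of the library corrected for transcript length, so levels of different genes can be compared. Summed over the 8 genes, the mean level was highest in G sorts of newborn marrow, at 11430 ± 527 TPM. In the same marrow it was 4866 ± 680 TPM in M sorts and 2134 ± 89.6 TPM in all cells (SD, n = 3 each). It was 5518 ± 3621 TPM in G and 4696 ± 2587 TPM in M sorts of APCmin/+ spleen, and 1736 ± 128 TPM in G and 1262 ± 137 TPM in M sorts of BALB/c spleen. In the intestine the sum was 192 ± 50.2 TPM in G sorts, 205 ± 41.1 TPM in M sorts, 234 ± 49.0 TPM in GM sorts and 241 ± 24.4 TPM in all cells. Retnlg was the most abundant of the 8 in every group outside the intestine by mean level. By mean level, 6 of the 8 genes (Retnlg, Pglyrp1, Wfdc21, Trem1, Trem3 and Cd177) had their highest group mean in G sorts of newborn marrow, whereas Slpi and Wfdc17 had theirs in G sorts of APCmin/+ spleen. With the 13 group means put in order, most neighbours overlapped in their libraries. Of 12 steps, only 2 were free of overlap for Pglyrp1 and for Trem1, 4 for Retnlg and for Cd177, 5 for Trem3, and 6 for Slpi and for Wfdc17. Trem1 was the least abundant of the 8 in every group outside the intestine except G sorts of marrow, where Wfdc17 was, and its highest group mean was 114 ± 34.8 TPM.

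**Figure D1:**
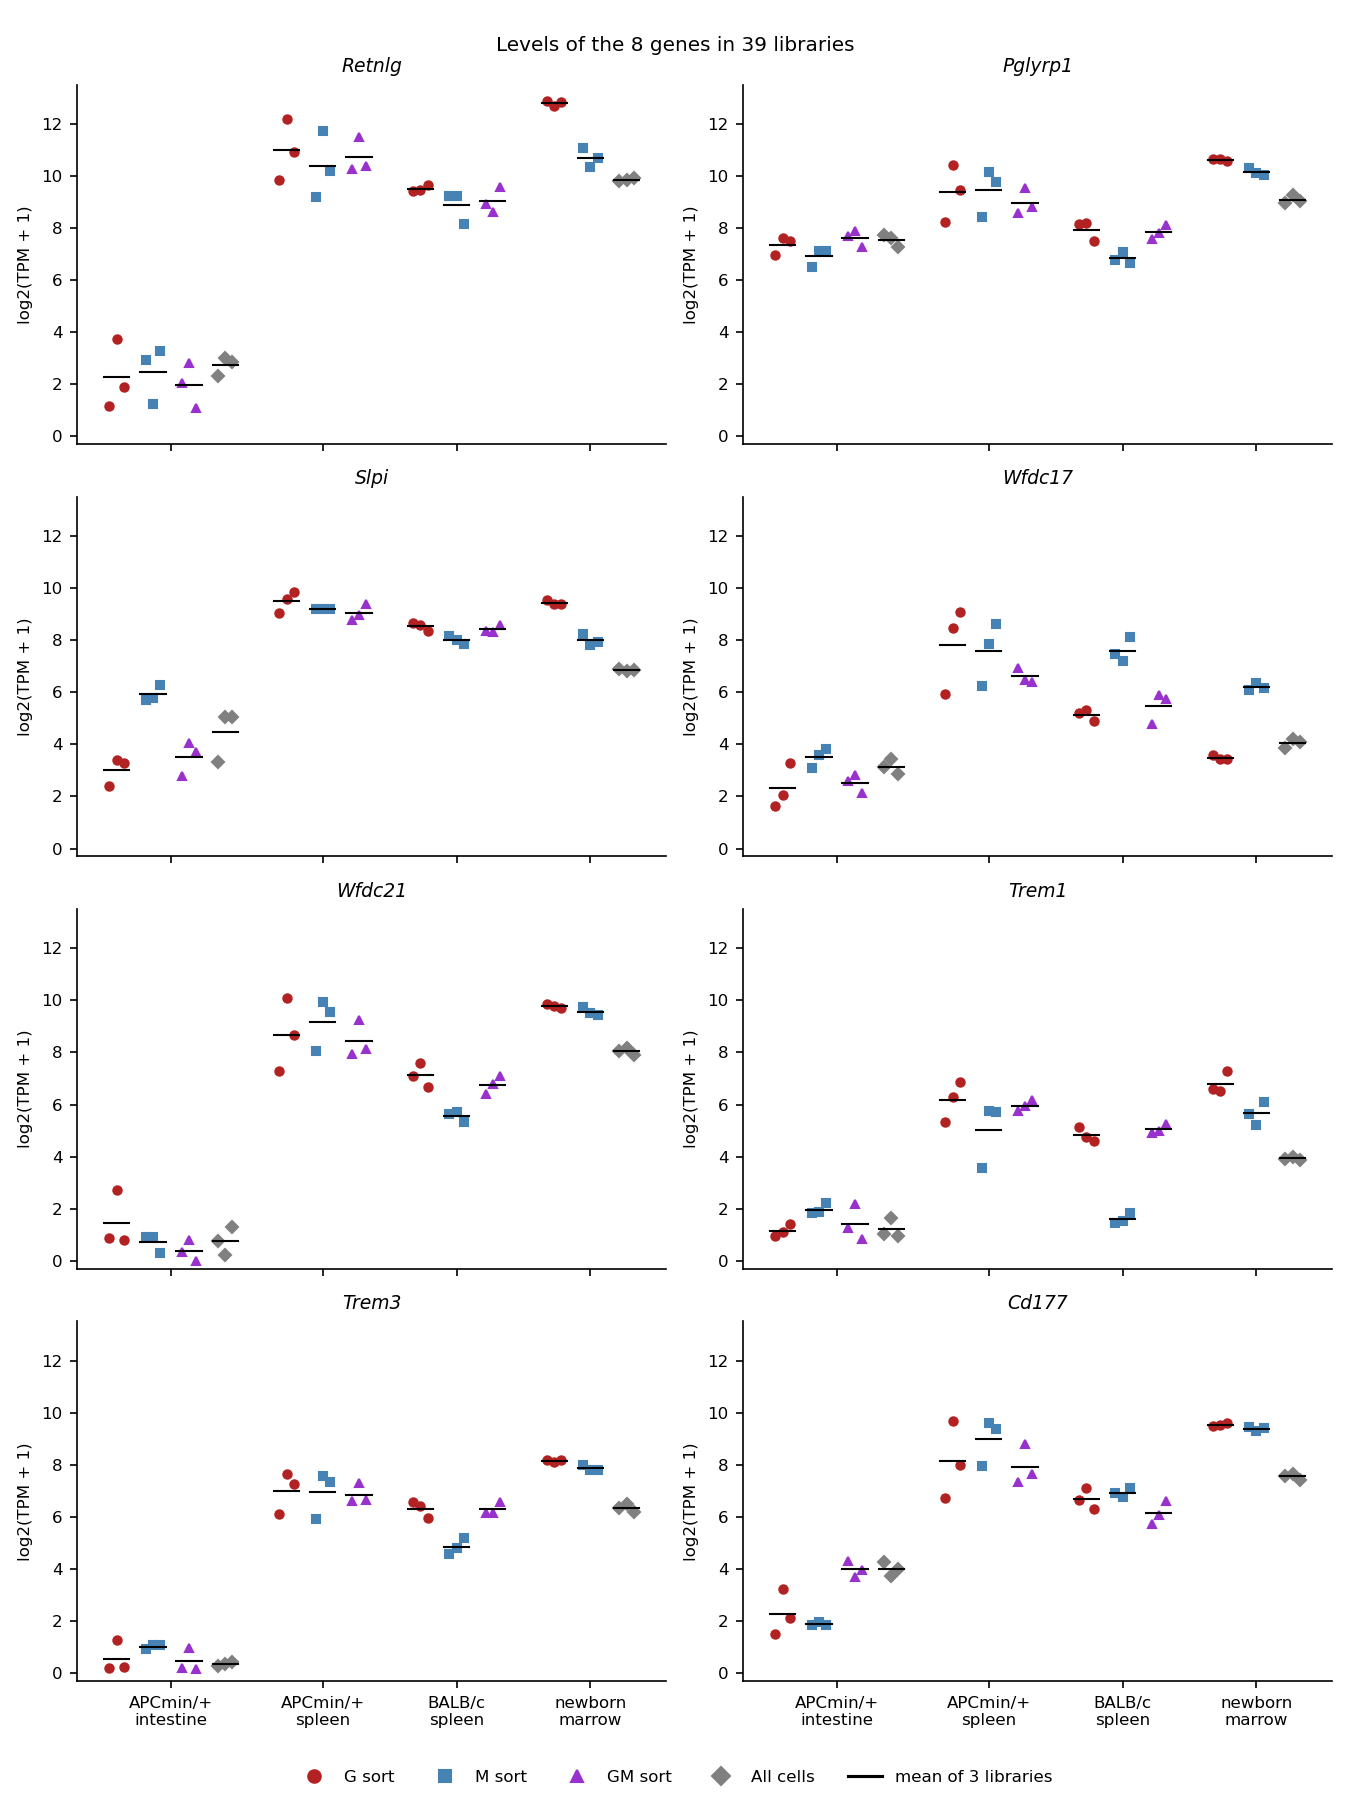
Level of each of the 8 genes in 39 libraries, as log2(TPM + 1), by site and sort. Each symbol is 1 library and each line the mean of 3. All 12 intestinal libraries lie below the 27 others for Retnlg, Wfdc21, Slpi, Trem3 and Cd177, while Pglyrp1 stays between 89.3 and 237 TPM there.

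Before the comparisons, the sorts were checked against marker genes. The 12 markers of mature neutrophils, among them Cxcr2, Csf3r and S100a8, summed to 92950 ± 5188 TPM in G and 85880 ± 8276 TPM in M sorts of newborn marrow. In APCmin/+ spleen they summed to 57920 ± 40410 TPM in G and 59120 ± 31510 TPM in M sorts, and in BALB/c spleen to 18780 ± 3964 TPM in G and 4197 ± 488 TPM in M sorts. In marrow and in APCmin/+ spleen the ranges of these sums overlapped between G and M libraries. A sum is set mainly by its most abundant genes. Gene by gene, 9 of the 12 were called higher in G than in M sorts of marrow, 9 in BALB/c spleen and 5 in APCmin/+ spleen. The 10 monocyte markers separated the sorts in the labelled direction, with 641 ± 15.0 TPM in G and 4585 ± 59.6 TPM in M sorts of marrow, and 836 ± 76.0 TPM in G and 4362 ± 784 TPM in M sorts of BALB/c spleen. In bulk RNA, fewer cells of a type and less RNA per cell cannot be told apart. All intestinal groups carried epithelial RNA, with 9 markers summing to 7757 to 11646 TPM, and their neutrophil markers summed to 145 to 615 TPM.

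In newborn marrow, 3 of the 8 genes were higher in G than in M sorts, 1 was lower and 4 were not called. Calls rest on limma across all genes, with a Benjamini-Hochberg adjusted p under 0.05 and a change of 1 or more in either direction on the log2(TPM + 1) scale. Of all genes tested, 6.89% were called higher and 3.33% lower (10.2% in all). Retnlg had 7489, 6599 and 7339 TPM in G sorts, against 2151, 1275 and 1629 TPM in M sorts. Slpi had 737, 667 and 674 TPM in G sorts, against 303, 225 and 245 TPM in M sorts. Trem1 had 96.6, 91.2 and 154 TPM in G sorts, against 49.2, 36.2 and 68.4 TPM in M sorts. For each of these 3 genes every G library lay above every M library. The log2 fold change was 2.11 ± 0.61 (SE) for Retnlg (adjusted p = 0.00815), 1.43 ± 0.32 for Slpi (adjusted p = 8.74e-04) and 1.14 ± 0.40 for Trem1 (adjusted p = 0.0289).

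Wfdc17 ran the other way in marrow. It had 11.1, 9.71 and 9.71 TPM in G sorts, against 66.6, 79.8 and 69.8 TPM in M sorts, a log2 fold change of -2.71 ± 0.53 (limma, adjusted p = 2.09e-04). Its neighbour Wfdc21 had 922, 888 and 826 TPM in G sorts and 859, 733 and 695 TPM in M sorts, ranges that overlapped. Pglyrp1, Trem3 and Cd177 differed by log2 fold changes of 0.46, 0.30 and 0.15 without a call, although their G libraries all lay above their M libraries. In all, 7 of the 8 genes had groups that did not overlap, against 55.5% of all genes tested. The median log2 fold change was 0.38 over the 8 genes and 0.04 over all genes tested. The Trem1 call did not hold without G library 3 (log2 fold change 0.91, adjusted p = 0.145), nor without M library 1 (1.14, 0.0658) or 2 (0.92, 0.142), nor at a pseudocount of 0.1 or with no filter on low values (adjusted p of 0.0558 and 0.0524).

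Other cell types moved with the marrow contrast. The mature neutrophil list was higher in G sorts for 9 of 12 genes. The 6 primary granule genes, made by neutrophil precursors, were all lower, with sums of 317 ± 87.2 TPM in G and 2544 ± 264 TPM in M sorts. The 8 secondary and tertiary granule genes summed to 39410 ± 1905 TPM in G and 50300 ± 3054 TPM in M sorts, without overlap. All 10 monocyte markers were lower in G sorts. Of 8 B cell markers 7 were higher, with sums of 2524 to 2836 TPM in G and 282 to 397 TPM in M sorts, and all 5 stromal markers were higher, with 295 to 584 TPM in G and 37.2 to 84.6 TPM in M sorts. Their part in the differences of the 8 genes was not tested.

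In BALB/c spleen, 4 of the 8 genes were higher in G than in M sorts and 1 was lower, where 1.71% of all genes tested were called higher and 3.24% lower (4.94% in all). The receptor Trem1 differed most. It had 34.1, 26.0 and 23.2 TPM in G sorts, against 1.76, 1.91 and 2.58 TPM in M sorts, a log2 fold change of 3.21 ± 0.40 (limma, adjusted p = 6.53e-07). Trem3 had 92.9, 83.8 and 60.9 TPM in G sorts, against 23.1, 26.8 and 35.4 TPM in M sorts (1.44 ± 0.34, limma, adjusted p = 0.00228). Both receptors were thus higher in each G library than in any M library. Among the secreted proteins, Wfdc21 had 137, 191 and 101 TPM in G sorts, against 49.0, 51.1 and 39.7 TPM in M sorts (1.56 ± 0.51, limma, adjusted p = 0.0308). Pglyrp1 had 281, 288 and 177 TPM in G sorts, against 107, 134 and 99.2 TPM in M sorts (1.10 ± 0.37, limma, adjusted p = 0.0373).

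Wfdc17 was again the exception, with 35.8, 39.0 and 28.8 TPM in G sorts of BALB/c spleen, against 174, 145 and 278 TPM in M sorts (-2.45 ± 0.53, limma, adjusted p = 0.00123). Retnlg, with 678, 703 and 802 TPM in G sorts and 599, 598 and 282 TPM in M sorts, was not called (log2 fold change 0.64). Slpi and Cd177 were not called either, at log2 fold changes of 0.52 and -0.24, and Cd177 alone had overlapping groups. Groups without overlap were found for 7 of the 8 genes and for 40.8% of all genes tested. The median log2 fold change was 0.87 over the 8 genes and -0.05 over all genes tested. In the same contrast 9 of 12 mature neutrophil genes were higher, and 5 of 6 primary granule genes and 9 of 10 monocyte genes were lower. Secondary and tertiary granule genes summed to 5588 ± 1626 TPM in G and 2567 ± 479 TPM in M sorts, without overlap. Of the dendritic cell markers 4 of 6 were lower, with sums of 22.4 to 27.1 TPM in G and 71.9 to 105 TPM in M sorts.

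The Wfdc21 and Pglyrp1 calls in BALB/c spleen depended on single libraries. Wfdc21 was not called without G library 1 or 2 (adjusted p of 0.0738 and 0.136) or without M library 1, 2 or 3 (0.0636, 0.0558 and 0.104). Pglyrp1 was not called without G library 1 or 2 (0.127 and 0.134) or without M library 1 or 3 (0.0958 and 0.124). Their log2 fold changes stayed between 1.33 and 1.63 for Wfdc21 and between 0.98 and 1.07 for Pglyrp1 in these fits.

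In APCmin/+ spleen, G and M libraries overlapped for each of the 8 genes. Only Trem1 was called, higher in G sorts, where 0.579% of all genes tested were called higher and 2.64% lower (3.22% in all). Groups without overlap, found for 0 of the 8 genes, were found for 19% of all genes tested. Trem1 had 39.3, 76.5 and 116 TPM in G sorts, against 11.0, 53.5 and 51.0 TPM in M sorts, a log2 fold change of 1.14 ± 0.40 (limma, adjusted p = 0.0412). A fit restricted to these 2 groups did not call it (adjusted p = 0.495). G and M libraries of equal number deviated together at this site, and adding the replicate number as a block to the restricted fit gave an adjusted p of 0.156. Within the pairs Trem1 was 3.58, 1.43 and 2.27 times as high in G as in M sorts. Dropping G library 2 (1.08, 0.0998), G library 3 (0.79, 0.25) or M library 1 (0.42, 0.447) ended the call as well.

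The other genes of APCmin/+ spleen stayed uncalled. Retnlg had 921, 4682 and 1928 TPM in G sorts, against 580, 3368 and 1153 TPM in M sorts. It was 1.59, 1.39 and 1.67 times as high in G as in M sorts within the pairs, with a log2 fold change of 0.63 ± 0.61. Cd177 had 105, 820 and 253 TPM in G sorts, against 248, 782 and 654 TPM in M sorts. Its log2 fold change was -0.84 ± 0.48 (limma, adjusted p = 0.223), and without G library 2 it was called lower, at -1.61 (adjusted p = 0.0106). Wfdc17 had 60.3, 352 and 545 TPM in G sorts and 73.6, 232 and 392 TPM in M sorts, a log2 fold change of 0.26 ± 0.53. The median log2 fold change was 0.17 over the 8 genes and -0.08 over all genes tested. In this contrast 5 of 12 mature neutrophil genes were higher in G sorts, while 5 of 6 primary granule genes and 8 of 10 monocyte genes were lower. Secondary and tertiary granule genes summed to 18820 ± 16860 TPM in G and 31020 ± 12980 TPM in M sorts, with overlap.

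Libraries of APCmin/+ spleen differed widely within each sort. Library 2 was the highest of the 3 for 5 of the 8 genes in G sorts, 7 in M sorts and 5 in GM sorts. The summed neutrophil markers followed the same order, with 21082, 101149 and 51534 TPM in G sorts, 24376, 85832 and 67154 TPM in M sorts, and 28063, 56473 and 34311 TPM in GM sorts. Slpi stood apart from this spread in M sorts, at 578, 588 and 579 TPM. B cell markers were highest in library 1 of each sort, with 5812, 4855 and 6205 TPM in the G, M and GM sorts. The part of these marker levels in the spread of the 8 genes was not tested.

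**Figure D2:**
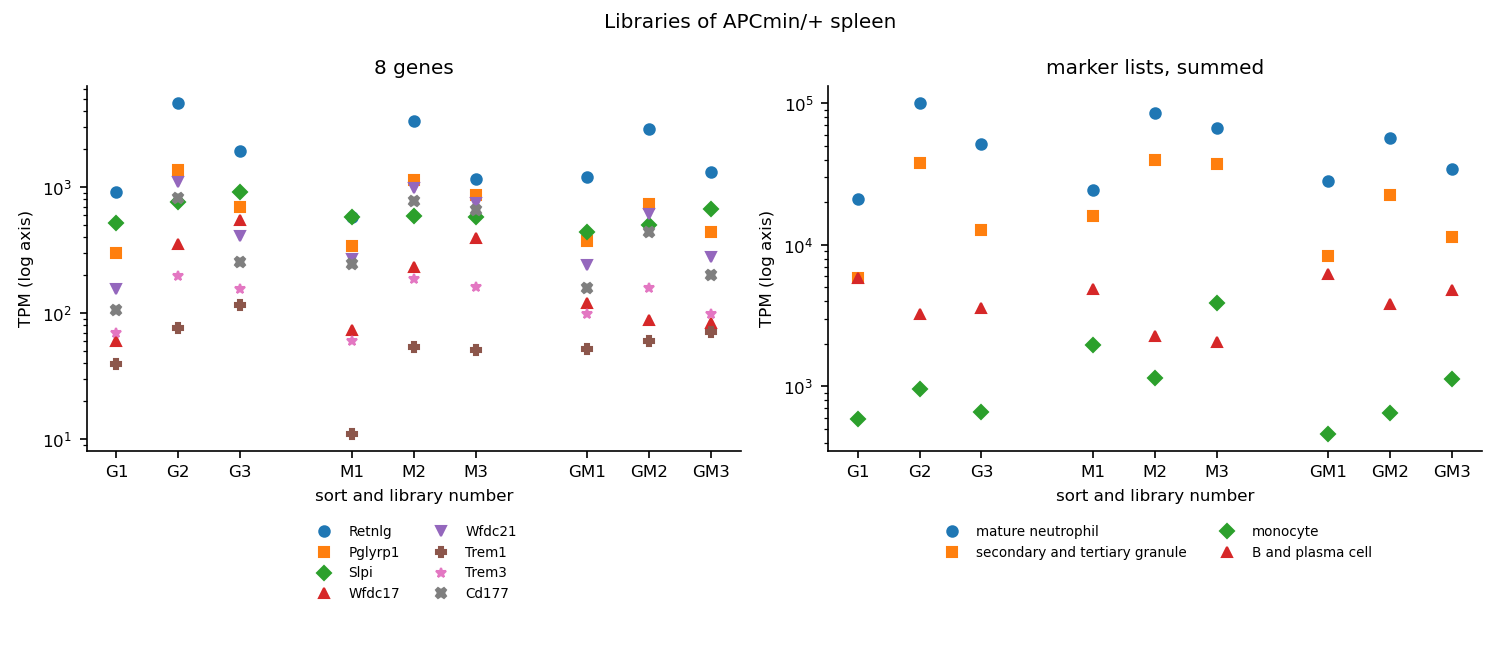
TPM of the 8 genes (left) and of 4 summed marker lists (right) in the 9 sorted libraries of APCmin/+ spleen, on log axes, by sort and library number. Most genes and the neutrophil markers are lowest in library 1 and highest in library 2, while Slpi in M sorts stays between 578 and 588 TPM.

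In the intestine of APCmin/+ mice, Slpi was the only one of the 8 genes called between the sorts, and it was lower in G than in M sorts. Of all genes tested, 0.0704% were called higher and 2.76% lower (2.83% in all). Slpi had 4.32, 9.53 and 8.76 TPM in G sorts, against 50.9, 54.2 and 77.0 TPM in M sorts, a log2 fold change of -2.89 ± 0.32 (limma, adjusted p = 1.11e-06). Every M library lay above every G library, and the pairs gave G levels of 0.0849, 0.176 and 0.114 times those of M sorts. Trem1 also did not overlap, at 0.94, 1.16 and 1.64 TPM in G sorts and 2.57, 2.64 and 3.61 TPM in M sorts, but was not called (-0.81 ± 0.40, adjusted p = 0.224). Thus 2 of the 8 genes were free of overlap, against 21.4% of all genes tested. Wfdc17, at a log2 fold change of -1.18, and Wfdc21, at 0.76, were not called, and Wfdc21 was listed at 0 in GM library 3. The median log2 fold change was -0.33 over the 8 genes and 0.14 over all genes tested, and -0.01 over all genes tested once the libraries were rescaled by their median ratio. In this contrast 0 of 12 mature neutrophil genes were called higher in G sorts and 1, Il1b, was lower, with a median log2 fold change of -0.03. These markers thus did not separate the intestinal sorts in the labelled direction.

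Markers of other cells moved with Slpi in the intestine. Slpi averaged 7.54 ± 2.81 TPM in G sorts, 60.7 ± 14.2 TPM in M sorts, 11.2 ± 4.95 TPM in GM sorts and 24.4 ± 13.4 TPM in all cells. The 8 B and plasma cell markers summed to 444 ± 168 TPM in G, 5174 ± 500 TPM in M, 1047 ± 610 TPM in GM sorts and 2658 ± 1647 TPM in all cells, and 4 of the 8 were lower in G than in M sorts. Monocyte markers summed to 142 ± 27.9 TPM in G, 642 ± 63.3 TPM in M, 239 ± 36.7 TPM in GM sorts and 301 ± 51.9 TPM in all cells, with 4 of 10 lower in G than in M sorts. Of 6 dendritic cell markers 5 were lower as well. Their part in the Slpi difference was not tested.

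**Figure D3:**
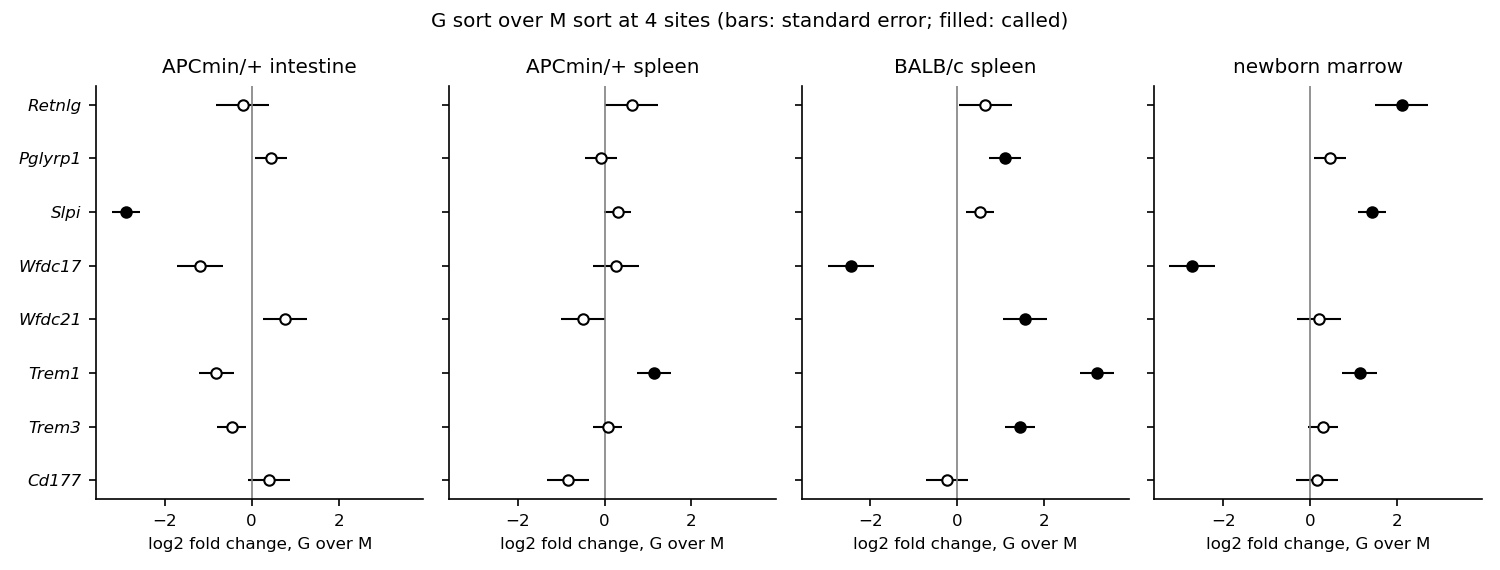
Log2 fold change of G over M sorts at the 4 sites for each of the 8 genes, on the log2(TPM + 1) scale, with standard errors as bars and called genes filled. Wfdc17 lies at -2.71 in newborn marrow and -2.45 in BALB/c spleen, Trem1 at 3.21 in BALB/c spleen and Slpi at -2.89 in the intestine.

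The G over M contrast itself was compared between sites. Between intestine and spleen of APCmin/+ mice it differed for 2 of the 8 genes, both lower in the intestine, where 4.92% of all genes tested were called higher and 3.6% lower (8.52% in all). The difference was -3.19 ± 0.46 on the log2 scale for Slpi (limma, adjusted p = 4.74e-05) and -1.95 ± 0.57 for Trem1 (limma, adjusted p = 0.0123). Libraries of equal number deviated together (every r over 0.1) within each of these sites, which did not hold between the sites. In a fit restricted to the 4 groups, with a replicate block within each site, which was chosen after seeing the data, both were called (adjusted p of 0.00511 for Slpi and 0.0165 for Trem1). Trem1 was not called in the restricted fit without a block (0.161) or with 1 block across the sites (0.0861). Without G library 2 of APCmin/+ spleen 4 of the 8 were called. Between BALB/c spleen and newborn marrow Trem1 alone was called, with a contrast larger by 2.07 ± 0.57 in BALB/c spleen (limma, adjusted p = 0.0119), where 1.51% of all genes tested were called higher and 6.2% lower (7.71% in all).

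Between APCmin/+ and BALB/c spleen none of the 8 contrasts was called, against 1.08% of all genes tested (0.531% higher and 0.547% lower). By limma, 5 of the 8 had an unadjusted p under 0.05. The share of all genes tested under that unadjusted threshold is not given here, so this count has no background to be read against. The Trem1 contrast was smaller in APCmin/+ spleen by a log2 difference of -2.07 ± 0.57 (limma, adjusted p = 0.0587), and that of Wfdc17 was higher by 2.71 ± 0.76 (adjusted p = 0.0667). Trem1 was called without M library 1 (-2.79, adjusted p = 5.1e-04) or G library 3 (-2.43, 0.0301) of APCmin/+ spleen. Wfdc17 was called without G library 1 (3.66, 0.00122) or M library 3 (3.24, 0.0123) of the same spleen.

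All 8 genes were lower in intestine than in spleen of APCmin/+ mice, in G, M and GM sorts alike and without overlap of libraries. Such separation held for 67.4%, 70.4% and 70.3% of all genes tested in the G, M and GM sorts. Of all genes tested, 22.2%, 25.7% and 19.9% were called lower in the G, M and GM sorts (40.8%, 39.9% and 39.3% in either direction). Retnlg showed the largest log2 fold change in G sorts, at -8.71 ± 0.61 (limma, adjusted p = 1.03e-13), and in GM sorts, at -8.72, and Wfdc21 in M sorts, at -8.47 ± 0.51 (adjusted p = 4e-15). Pglyrp1 showed the smallest in each sort, at -2.01, -2.54 and -1.35 in the G, M and GM sorts. Slpi was lower by -6.46 in G sorts and by -3.26 in M sorts, which is the difference of -3.19 tested above. The medians over the 8 genes were -6.15, -4.99 and -5.02 in the G, M and GM sorts, and over all genes tested -0.16, -0.43 and -0.15. In the intestine the epithelial markers averaged 10350, 9860 and 8915 TPM in the G, M and GM sorts, against 9036 TPM in all cells. The neutrophil markers there averaged 311, 247 and 273 TPM, against 289 TPM in all cells. The sorted intestinal libraries thus resembled all cells in both sums. The part of this content in the differences of the 8 genes was not tested.

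Pglyrp1 was the most abundant of the 8 in each intestinal group. It had 125, 192 and 180 TPM in G sorts, 89.3, 137 and 136 TPM in M sorts, 203, 237 and 152 TPM in GM sorts, and 209, 196 and 151 TPM in all cells. The intestinal levels overlapped those of BALB/c spleen, where Pglyrp1 had 99.2 to 288 TPM over the G, M and GM sorts. Trem3, by contrast, had 0.13 to 1.40 TPM in the 12 intestinal libraries and 23.1 to 94.0 TPM in BALB/c spleen. The epithelial markers summed to 7757 to 11646 TPM in these 12 libraries and to 3.30 to 58.3 TPM in the 27 others. The part of epithelial RNA in the Pglyrp1 level was not tested.

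Between the spleens, the genes that differed were all higher in APCmin/+ mice than in the BALB/c mice labelled as immune-deficient. These mice differ in genotype and immune state, and neither the strain behind the APCmin/+ mice nor the ages are given here. In G sorts 5 of 8 were called (3.1% of all genes tested were called higher, 5.77% lower, 8.87% in all), in M sorts 6 of 8 (5.51%, 5.97% and 11.5%) and in GM sorts 4 of 8 (3.61%, 5.39% and 9%). Libraries did not overlap for 5, 6 and 8 of the 8 genes in the G, M and GM sorts, against 40.7%, 41.8% and 37.4% of all genes tested. In M sorts Wfdc21 averaged 664 ± 363 TPM in APCmin/+ spleen, against 46.6 ± 6.06 TPM in BALB/c spleen, a log2 fold change of 3.62 ± 0.51 (limma, adjusted p = 2.17e-06). Trem1 in M sorts averaged 38.5 ± 23.9 TPM in APCmin/+ spleen, against 2.08 ± 0.44 TPM in BALB/c spleen (3.40 ± 0.40, adjusted p = 1.03e-07). Pglyrp1, Trem3, Cd177 and Slpi were higher in M sorts by log2 fold changes of 2.62, 2.08, 2.05 and 1.18. Wfdc17 was not called in M sorts, with 233 ± 159 TPM in APCmin/+ spleen, against 199 ± 70.0 TPM in BALB/c spleen (limma, adjusted p = 1).

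In G sorts Wfdc17 changed most between the spleens, with 319 ± 244 TPM in APCmin/+ spleen, against 34.5 ± 5.23 TPM in BALB/c spleen (log2 fold change 2.69 ± 0.53, limma, adjusted p = 3.17e-04). Cd177, Pglyrp1, Trem1 and Wfdc21 were higher by log2 fold changes between 1.33 and 1.56. In GM sorts Cd177, Wfdc21, Retnlg and Pglyrp1 were higher, by 1.79, 1.68, 1.66 and 1.12. The medians over the 8 genes were 1.44, 2.06 and 1.13 in the G, M and GM sorts, against -0.15, -0.14 and -0.12 over all genes tested. The counts in G and GM sorts rested on single libraries. In G sorts 1 of 8 was called without library 2 of APCmin/+ spleen, 8 of 8 without its library 1 and 2 of 8 without library 3 of BALB/c spleen. In GM sorts 0 of 8 were called without library 2 of APCmin/+ spleen, 1 without library 1 and 2 without library 2 of BALB/c spleen. A fit to only the groups compared called 0 of the 8 in G and in GM sorts. In M sorts that limma fit did not call Trem3 or Cd177 (adjusted p of 0.0512 and 0.0504). With a replicate block added it called none of the 8 in M sorts, although replicate numbers did not pair these samples. The neutrophil markers summed to 57920 TPM in G, 59120 TPM in M and 39620 TPM in GM sorts of APCmin/+ spleen, against 18780, 4197 and 16550 TPM in those of BALB/c spleen, and 11 of 12 were called higher in M sorts. Monocyte markers were lower in M sorts for 8 of 10 genes, with sums of 2325 ± 1406 TPM in APCmin/+ and 4362 ± 784 TPM in BALB/c spleen. Macrophage markers were lower for 4 of 7 genes in G, 1 of 7 in M and 6 of 7 in GM sorts, and their GM sums were 999.9 ± 1362 TPM in APCmin/+ and 2493 ± 72.0 TPM in BALB/c spleen. Erythroid markers were higher for 3, 4 and 5 of 6 genes in the G, M and GM sorts. The part of these markers in the differences of the 8 genes was not tested.

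Against all marrow cells, 7 of the 8 genes were higher in G sorts of newborn marrow (9.65% of all genes tested were called higher, 9.49% lower, 19.1% in all) and 7 in M sorts (7.87%, 11.2% and 19.1%). The exception in G sorts was Wfdc17, at 10.2 ± 0.80 TPM in G sorts and 15.8 ± 2.05 TPM in all cells. The exception in M sorts was Retnlg, at 1685 ± 441 TPM in M sorts and 919 ± 30.8 TPM in all cells. In G sorts the changes ran between log2 fold changes of 1.54 for Pglyrp1 and 2.96 for Retnlg, and in M sorts between 1.07 for Pglyrp1 and 2.12 for Wfdc17. Pglyrp1 in M sorts was not called without M library 1 (adjusted p = 0.0551) or without all-cell library 1 (0.0519). The marrow of all cells held erythroid markers at 50940 ± 14420 TPM, against 1295 ± 285 TPM in G and 555 ± 144 TPM in M sorts.

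In the intestine the sorts were set against all cells too. G sorts were lower for Cd177 and Slpi (2 of 8, with 0.157% of all genes tested called higher, 5.23% lower and 5.38% in all). M sorts were lower for Cd177 and higher for Slpi (2 of 8, with 0.742%, 3.68% and 4.42%). GM sorts differed for none of the 8 by limma, where 3.24% of all genes tested were called. Of the 8, 1 had an unadjusted p under 0.05, a threshold for which the share of all genes tested is not given here. Without all-cell library 1 or GM library 2, 1 of the 8 was called in GM sorts. Cd177 had 1.86, 8.31 and 3.29 TPM in G sorts, 2.62, 2.89 and 2.61 TPM in M sorts and 18.6, 11.9 and 14.7 TPM in GM sorts, against 18.2, 12.4 and 15.2 TPM in all cells. GM sorts and all cells thus shared a Cd177 level above every G and M library. Ly6g, the surface antigen commonly used to sort neutrophils, ran alike, with means of 1.97 ± 1.54 TPM in G, 1.51 ± 0.45 TPM in M and 34.4 ± 6.79 TPM in GM sorts and 16.4 to 27.9 TPM in all cells. The sum of the 12 mature neutrophil markers, of which Ly6g is a small part, did not follow this split. It was 311 ± 264 TPM in G, 247 ± 30.4 TPM in M and 273 ± 120 TPM in GM sorts, against 289 ± 22.0 TPM in all cells. Equally numbered intestinal libraries deviated together between GM sorts and all cells (r of 0.643, 0.59 and 0.628) and between G and M sorts (0.599, 0.432 and 0.562). Against all cells r was 0.234, 0.0895 and 0.21 for G sorts and 0.155, -0.0314 and 0.195 for M sorts. Whether G and M libraries were handled as a set apart is not given. Such a set and the sort cannot be told apart here. The Cd177 log2 fold change was -1.73 ± 0.48 in G sorts (limma, adjusted p = 0.0121) and -2.12 ± 0.48 in M sorts (adjusted p = 0.00174). Without G library 1 the G sort value was -1.35 (adjusted p = 0.128), and without all-cell library 1 the Slpi log2 fold change in M sorts, otherwise 1.46, was 0.87.

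The combined sorts were placed by group means. In BALB/c spleen the GM mean lay between the G and M means for 6 of the 8 genes, above both for Trem1 and below both for Cd177. In APCmin/+ spleen it lay between them for Retnlg and Trem1 and below both for the other 6. In the intestine 3 genes lay between, 3 below both, and Pglyrp1 and Cd177 above both. There a set of libraries and the sort cannot be told apart, as stated above for Cd177. Trem1 of BALB/c spleen had 29.3, 30.4 and 37.1 TPM in GM sorts and 34.1, 26.0 and 23.2 TPM in G sorts, ranges that overlapped.

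Ratios between pairs of the 8 genes were taken within each library, for the neighbours Trem1 and Trem3 and Wfdc17 and Wfdc21, and for Retnlg and Wfdc21. Trem1 stood to Trem3 at 0.569 ± 0.181 in G and 0.262 ± 0.0688 in M sorts of APCmin/+ spleen, at 0.353 ± 0.0371 in G and 0.0734 ± 0.00241 in M sorts of BALB/c spleen, and at 0.398 ± 0.115 in G and 0.222 ± 0.0765 in M sorts of newborn marrow (TPM ratio, SD, n = 3 each). The ratio was higher in each G than in any M library at all 3 sites. Wfdc17 stood to Wfdc21 at 0.25 ± 0.0414 in G and 4.46 ± 2.23 in M sorts of BALB/c spleen, and at 0.0116 ± 5.77e-04 in G and 0.0956 ± 0.0162 in M sorts of newborn marrow, with no overlap at either site. In APCmin/+ spleen that ratio was 0.682 ± 0.567 in G and 0.347 ± 0.158 in M sorts, and the libraries overlapped. Retnlg stood to Wfdc21 at 8.15 ± 0.732 in G and 2.19 ± 0.404 in M sorts of newborn marrow and at 4.99 ± 0.887 in G and 2.38 ± 0.959 in M sorts of APCmin/+ spleen. In BALB/c spleen it stood at 5.52 ± 2.18 in G and 10.4 ± 2.82 in M sorts, and overlapped. With 3 libraries a group the two-sided exact permutation test cannot go below 0.1, which 7 of the 9 ratio comparisons reached (adjusted p = 0.129).

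Over the 13 group means of log2(TPM + 1), the 8 genes were correlated with each other, and the intestinal means were low for most. Pearson's r lay between 0.33 for Pglyrp1 with Wfdc17 and 0.99 for Trem3 with Wfdc21. Without the 4 intestinal groups, Pglyrp1, Wfdc21 and Trem3 had the highest r (0.98 for Pglyrp1 with Wfdc21, 0.95 for Pglyrp1 with Trem3, and 0.94 for Wfdc21 with Trem3, over 9 group means). Wfdc17 then had r between -0.26 and 0.34 with the other 7. These are descriptions over group means that share strain, site and marker content.

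Among 9310 genes with a group mean of at least 20 TPM, the 3 closest in pattern were found for each gene by r over all 13 group means. The low intestinal means thus enter these values, and the search was not run without them. For Wfdc21 they were Ltf (0.998), Lcn2 (0.993) and Mmp8 (0.992), genes of the secondary and tertiary granules. For Retnlg they were Stx11, Fpr2 and Fpr1 (0.994 to 0.996), of which Fpr1 and Fpr2 are formyl peptide receptors. For Trem3 they were Pygl, Fpr2 and Pram1 (0.994 to 0.997), and for Trem1 Mrgpra2a, Tarm1 and C5ar2 (0.98 to 0.986). For Pglyrp1 they were Ankrd22, Ceacam10 and Scrg1 (0.965 to 0.984), and for Cd177 Anxa1, Kbtbd7 and Fgfr1op2 (0.977 to 0.983). For Slpi they were Selplg, Fxyd5 and Plek (0.978 to 0.988). Wfdc17 had the loosest match, with Mefv, Rnf213 and Slfn5 (0.951 to 0.961).

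The pathways around the 8 genes were described from lists of related genes. Of 11 genes of TREM receptors and their signalling besides Trem1 and Trem3, 0 were called higher in G than in M sorts at the 4 sites, and the receptor Trem2 was lower in marrow and in both spleens. Trem2 averaged 1.26 ± 0.16 TPM in G and 25.5 ± 1.74 TPM in M sorts of marrow, where its log2 fold change was -3.55 (limma, adjusted p = 2.13e-08). It was lower by log2 fold changes of -3.20 in BALB/c and -1.92 in APCmin/+ spleen. The adaptor gene Tyrobp was not called outside the intestine, with 1857 ± 101 TPM in G and 2089 ± 98.7 TPM in M sorts of marrow. In the intestine Tyrobp (30.6 ± 14.1 TPM in G and 85.1 ± 23.3 TPM in M sorts) and Treml4 (1.69 ± 1.13 TPM in G and 5.76 ± 2.56 TPM in M sorts) were lower in G sorts. The kinase gene Syk, at 165 to 390 TPM by group mean in G and M sorts of marrow and spleens, was not called.

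Of the 4 partners of Cd177, Itgam stands under 2 identifiers in the table and was left out. Prtn3, which encodes proteinase 3, was lower in G than in M sorts of marrow (45.7 ± 15.9 TPM in G and 548 ± 61.6 TPM in M sorts) and of both spleens. Pecam1 was higher in G sorts of marrow, at 36.8 ± 2.40 TPM in G and 10.8 ± 0.72 TPM in M sorts. Itgb2, an integrin chain, was lower in G sorts of the intestine, at 8.60 ± 3.60 TPM in G and 29.2 ± 8.23 TPM in M sorts. Of 3 resistin family genes besides Retnlg, 1 was called between G and M sorts, Retnla, lower in G sorts of the intestine at 2.04 ± 2.14 TPM in G and 8.83 ± 6.33 TPM in M sorts. Of 3 further peptidoglycan recognition genes 2 could be tested, and Pglyrp4 was higher in G sorts of BALB/c spleen at 1.59 ± 0.61 TPM in G and 0.087 ± 0.10 TPM in M sorts. Of 11 further WAP-domain genes 3 could be tested, and 0 of them were called between G and M sorts at the 4 sites. Wfdc2 and Wfdc18 were called higher in intestine than in spleen of APCmin/+ mice in G, M and GM sorts. In the intestine Wfdc18 averaged 107 ± 43.9 TPM in G and 60.7 ± 27.8 TPM in M sorts. Wfdc2 averaged 3.55 ± 1.36 TPM in G, 2.33 ± 0.28 TPM in M and 74.3 ± 21.9 TPM in GM sorts there. The limit stated for intestinal Cd177, that a set of libraries and the sort cannot be told apart, holds for this Wfdc2 split too.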

How the data were processed

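Polyadenylated RNA of 39 mouse libraries in 13 groups of 3 was analysed, from stranded libraries read as 75-base single reads, per the labels' protocols. Per the submitters' processing notes, bcl2fastq 2.18, STAR 2.6.1c, RSEM and the build mm10 were used. The version and annotation of RSEM are not given here, and gene positions were read from GENCODE M21. The authors deposited gene-level TPM for 53465 genes. TPM keeps no read depth, so depth is unknown and no counting error is given. As deposited, 26 symbols had turned into dates and were restored from identifiers.

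The 18466 genes with at least 1 TPM in at least 3 libraries were fitted as log2(TPM + 1) with limma 3.58.1 (R 4.3.3), with 1 mean per group over all 39 libraries and a variance trend. P-values were two-sided and Benjamini-Hochberg adjusted over all genes tested. Calls needed an adjusted p under 0.05 and a change of 1 or more on this scale, in either direction. A fold change on this scale understates that of low genes. Groups followed the labels in 18 comparisons.

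The text names the 8 genes in every comparison, list genes that were called between G and M sorts or reached a group mean of 20 TPM, and the 3 genes most like each of the 8. The members and gene lists were chosen with earlier results of these data known. Replicate numbers pair the samples where every equally numbered pair correlates over 0.1. In G against M this held for the spleen of APCmin/+ mice (0.555, 0.375 and 0.404) and their intestine (0.599, 0.432 and 0.562), and it held for GM sorts against all cells of the intestine (0.643, 0.59 and 0.628). No label states what the numbers mark, so this pairing is read from the data. Alternatives were a pseudocount of 0.1, no filter, rescaling by median ratio, no minimum change, a fit restricted to the compared groups, that fit with a replicate block, and each library left out.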

Additional observations from a re-analysis of the deposited data

Results flagged for a closer look

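For 3 values, the G over M contrast of a gene differed between sites by a test of the difference itself (limma, adjusted over all genes tested). Between APCmin/+ intestine and APCmin/+ spleen, the Slpi contrast differed by -3.19 ± 0.46 on the log2 scale (adjusted p = 4.74e-05). Slpi was lower in G sorts in 3 of 3 intestinal pairs and in 1 of 3 splenic pairs. Between the same sites the Trem1 contrast differed by -1.95 ± 0.57 (adjusted p = 0.0123), with Trem1 lower in G sorts in 3 of 3 intestinal pairs and higher in 3 of 3 splenic pairs. Intestinal Trem1 was low, at 0.94 to 3.61 TPM in the G and M libraries. Its call was lost in the limma fit of only the groups compared, without a block (adjusted p = 0.161) and with a block across the sites (0.0861). Between BALB/c spleen and newborn marrow the Trem1 contrast was larger by 2.07 ± 0.57 (adjusted p = 0.0119), and Trem1 was higher in each G than in any M library at both sites. Groups of 3 libraries allow no outlier test.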

How the results depend on the processing

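Of 96 single-gene values, 71 of them called, rescaling kept all 71 calls, a pseudocount of 0.1 ended 7, no filter 5, a fit of only the groups compared 16, and the same restricted fit with the replicate block 22, and the causes were not tested. The replicate block was run within the restricted fit throughout, so its counts carry both changes. The number of the 8 genes called kept within 1.5 times its main value without a fold minimum and after rescaling in all 18 comparisons. For G against M it became 3 in BALB/c spleen without a filter and 0 in APCmin/+ spleen at a pseudocount of 0.1, without a filter, in the fit of only the groups compared and under the replicate block. For the difference between intestine and APCmin/+ spleen it was 1 in the fit of only the groups compared and under the replicate block. For that between BALB/c spleen and marrow it was 4 in both and under a replicate block within each site, an alternative chosen after seeing the data. That block also called Wfdc17 in the difference between intestine and APCmin/+ spleen (-1.44, adjusted p = 0.0365, against 0.166). Between the spleens, G sorts gave 0 in the fit of only the groups compared and under the replicate block, M sorts 0 under the block, and GM sorts 2 at a pseudocount of 0.1 and 0 in both of these fits. Against all intestinal cells, G sorts gave 0 in both fits, and M sorts 1 in the fit of only the groups compared and 0 under the replicate block. The replicate block changed no other count by over 1.5 times. Its numbers pair the samples only in the comparisons named in the methods. Leaving out 1 library gave 3 to 4 for G against M in marrow, 3 to 5 in BALB/c spleen, 0 to 1 in APCmin/+ spleen and 1 to 1 in the intestine. For the differences between sites it gave 2 to 4 (intestine and APCmin/+ spleen), 0 to 3 (the spleens) and 1 to 1 (BALB/c spleen and marrow). It gave 8 to 8 for intestine against APCmin/+ spleen in the G, M and GM sorts, and 1 to 8, 6 to 7 and 0 to 4 between the spleens. Against all cells it gave 7 to 7 (G) and 6 to 7 (M) in marrow, and 1 to 2 (G), 1 to 2 (M) and 0 to 1 (GM) in the intestine. Signs turned only for uncalled values. In G against M of APCmin/+ spleen, Pglyrp1 (-0.08) was 0.12 after rescaling and ran between -0.60 and 0.49 with 1 library left out. There Wfdc17 ran between -0.41 and 1.21, Wfdc21 between -1.21 and 0.21 and Trem3 between -0.44 and 0.51. In the intestine Retnlg ran between -0.95 and 0.35 and Cd177 between -0.08 and 0.77. Rescaling moved the split of all called genes by over 10 percentage points in 7 comparisons. For G against M it gave 235 higher and 279 lower in APCmin/+ spleen (107 and 487 as deposited), 370 and 440 in BALB/c spleen (315 and 598), and 320 and 1183 in the difference between intestine and APCmin/+ spleen (909 and 664). For M sorts of intestine against spleen it gave 3743 and 2414 (2630 and 4737), for M sorts against all intestinal cells 278 and 436 (137 and 679), and between the spleens 746 and 797 in G sorts (572 and 1066) and 1136 and 769 in M sorts (1017 and 1103). It took the median of all genes in M sorts of intestine against spleen, -0.43 as deposited, to 0.0. TPM holds no read depth, so depth could not be weighed.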
